A study of Mus musculus with 4 samples.

Results

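The target genes of the transcription factor p53 were examined in adult mouse mesoangioblasts (AdmMABs) in which PW1/Peg3 had been silenced. The list held 40 genes that are listed as p53 targets, and whether p53 acts on each of them in these cells was not tested. Membership used no measured value, though the list was chosen with earlier results of these data known. A gene counted as measured when a probe set carried its symbol and no other, and the brightest such probe set over the 4 arrays stood for the gene. By this rule 38 of the 40 genes were measured, out of 19938 genes on the array. Cdkn1a, which encodes the cell cycle inhibitor p21, has only a probe set that it shares with another symbol, and Fdxr, a mitochondrial reductase, was not named in the annotation used. Neither was analysed here, and no measured member was removed for a low value.

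The comparison was between shPW1 and Ctl cells, each with 2 arrays. The shPW1 AdmMABs carried a lentiviral short hairpin RNA against PW1, driven by an RNA polymerase III promoter, and the Ctl AdmMABs carried a lentiviral control hairpin described as a scramble without a match in mouse. Both came from the tibialis anterior muscle of adult male C57/BL6 mice, were polyclonal, and were collected while growing in medium with fetal bovine serum. A single hairpin was used, the 2 RNA extractions of a group are not stated to come from separate transductions, and p-values therefore measure only the spread between extractions.

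p53 is a transcription factor that is held at a low level by the ubiquitin ligase Mdm2 and is stabilized when DNA is damaged or growth signals are abnormal. It then raises genes that stop the cell cycle, repair DNA, limit growth and oxidative stress, or start apoptosis, together with genes such as Mdm2 that switch it off again. Many of these targets answer to other factors too, FoxO and Atf4 among them. PW1 has been studied in this pathway because its protein binds Siah1, a ubiquitin ligase induced with p53, and takes part in the movement of Bax in dying cells.

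The p53 target genes did not move as 1 group in shPW1 AdmMABs. Among the 38 measured, the polo-like kinases Plk2 and Plk3 and the DNA polymerase Polk were higher, and the cyclin Ccng2, the sestrin Sesn1, the membrane protein Perp and the autophagy factor Trp53inp2 were lower. The other 31 did not pass the test, which was limma at a Benjamini-Hochberg adjusted p under 0.05 over all probe sets. Of all 21789 probe sets tested, 9.1% passed in either direction, 4.93% higher and 4.17% lower, against 7 of 38 members, 3 higher and 4 lower. At an unadjusted p under 0.05 in limma, the share of all probe sets was 27.7%, 14.1% higher and 13.6% lower. These shares are the background for the counts of every class and list below. The median log2 fold change of the members was 0.04, beside -0.01 over all probe sets tested, and it spanned -0.75 to 0.64. Positive and negative values were found in 22 and 16 members. The arrays of the groups did not overlap for 29 members, 16 with shPW1 above Ctl and 13 with shPW1 below. Of all probe sets 55.5% showed no overlap, 27.5% with shPW1 above and 28% with shPW1 below. In these bulk RNAs, less RNA per cell and fewer cells expressing a gene cannot be told apart.

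**Figure D1:**
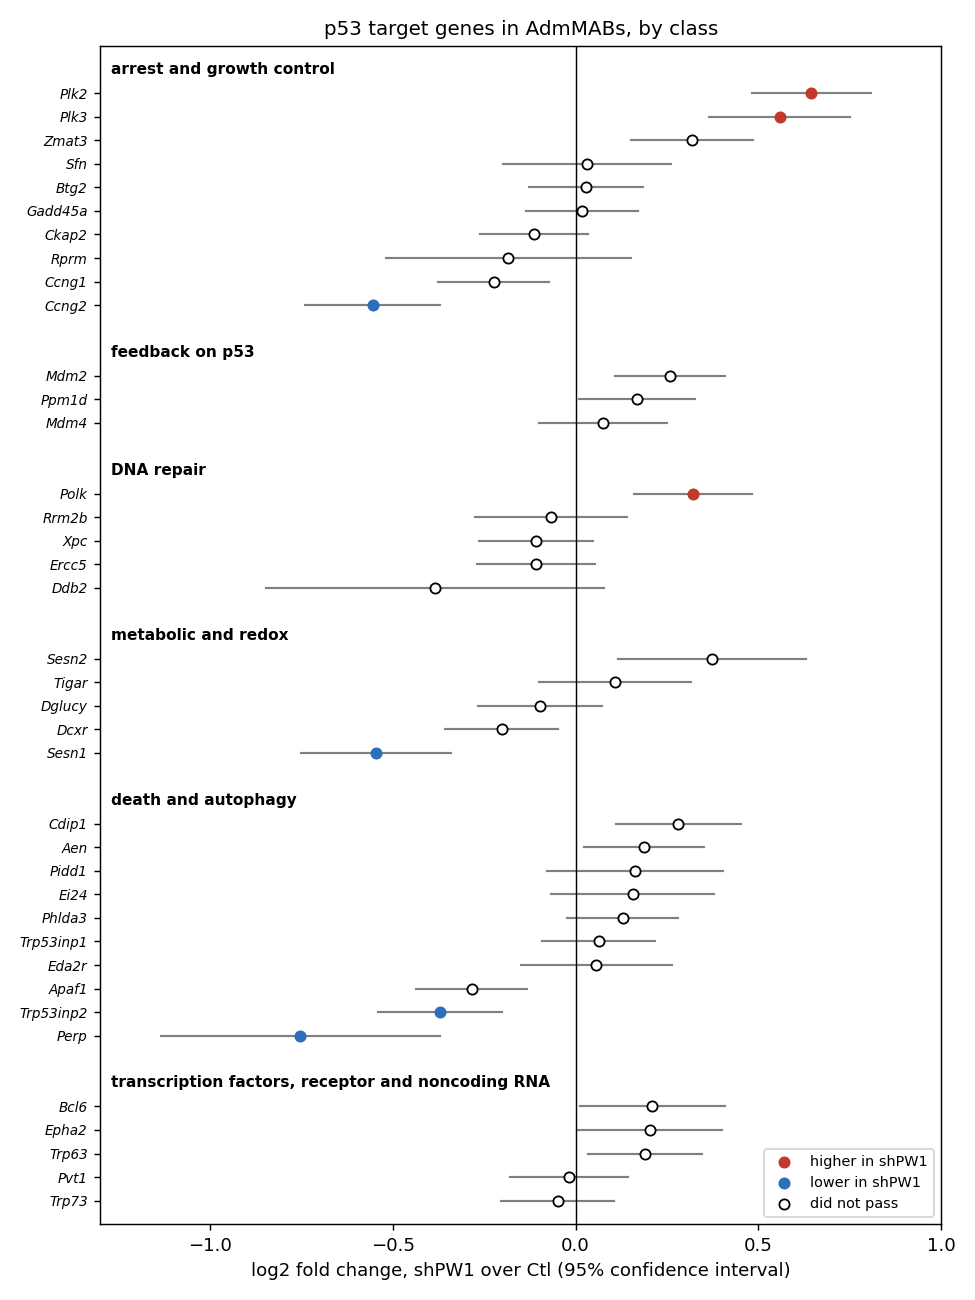
Log2 fold change of shPW1 over Ctl (horizontal axis) for the 38 measured p53 target genes (rows), grouped by role, with the 95% confidence interval from limma as a grey line (2 arrays in each group). Red points passed the test as higher, blue as lower, and open points did not pass; values run from -0.75 for Perp to 0.64 for Plk2, and every class also holds open points.

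The silencing and the identity of the cells were checked on the same arrays. Peg3 had a log2 expression of 6.22 and 6.47 in shPW1 and of 8.67 and 8.70 in Ctl, a log2 fold change of -2.34 (standard error 0.10, limma adjusted p = 0.00428). Myogenic markers moved with the groups: 5 of 8 measured were lower in shPW1 and 0 were higher, and their log2 values summed to 60.13 and 59.86 in the shPW1 arrays and to 64.02 and 64.31 in the Ctl arrays. Of 9 measured mesoangioblast and pericyte markers 2 were higher and 4 lower, with sums of 73.91 and 73.83 in shPW1 and of 75.37 and 75.73 in Ctl. On every array 8 of the 9 lay above the array median (5.40 to 5.49). The exception was the pericyte marker Rgs5, at 3.70 to 3.79, while alkaline phosphatase (Alpl), often used for these cells, was at 5.73 to 5.95. Of 8 endothelial and 7 leukocyte markers 0 passed in limma (0 and 1 at an unadjusted p under 0.05), and on every array 1 of each list lay above the array median. Endothelial sums were 37.82 to 38.28 in shPW1 and 38.53 to 38.71 in Ctl, and leukocyte sums were 30.59 to 31.63 in shPW1 and 30.56 to 31.98 in Ctl. The part of these marker shifts in the changes of p53 targets was not tested.

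The promoters of the called members are shown first, because they moved in opposite directions although all are listed as p53 targets. RefSeq windows from 250 bases before to 50 bases after a gene start (GRCm38.p6) were given for 32 of the 40 genes, 40 windows in all, and Perp had none. They were searched for the p53 half-site consensus, of which a p53 binding site holds a pair, and for TGACGTCA, the cAMP response element. Both motifs read the same on either strand, and no 2 matches overlapped. A half-site was found in 11 of 40 windows of members (27.5%) and in 8.36% of all 32851 windows, and TGACGTCA in 5 of 40 (12.5%) and in 1.79%. The part upstream of the start is printed for the 4 called members with a match, with the match in capitals.
Plk2, higher in shPW1, chr13:110394794-110395043, plus strand: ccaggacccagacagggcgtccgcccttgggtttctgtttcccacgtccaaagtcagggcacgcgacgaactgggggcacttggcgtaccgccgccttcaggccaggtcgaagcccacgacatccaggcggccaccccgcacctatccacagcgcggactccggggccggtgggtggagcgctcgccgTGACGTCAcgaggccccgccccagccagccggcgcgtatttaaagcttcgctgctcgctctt
Polk, higher in shPW1, chr13:96519188-96519437, minus strand: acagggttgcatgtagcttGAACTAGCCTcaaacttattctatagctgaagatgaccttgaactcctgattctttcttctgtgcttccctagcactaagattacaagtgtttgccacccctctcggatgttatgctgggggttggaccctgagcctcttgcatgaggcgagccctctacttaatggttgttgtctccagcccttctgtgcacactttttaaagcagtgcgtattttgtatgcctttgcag
Sesn1, lower in shPW1, chr10:41887189-41887438, plus strand: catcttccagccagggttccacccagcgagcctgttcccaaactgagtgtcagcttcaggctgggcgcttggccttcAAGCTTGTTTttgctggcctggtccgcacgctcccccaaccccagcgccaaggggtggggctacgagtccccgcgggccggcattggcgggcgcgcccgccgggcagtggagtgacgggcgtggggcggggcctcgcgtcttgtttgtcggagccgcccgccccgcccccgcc
Trp53inp2, lower in shPW1, chr2:155381606-155381855, plus strand: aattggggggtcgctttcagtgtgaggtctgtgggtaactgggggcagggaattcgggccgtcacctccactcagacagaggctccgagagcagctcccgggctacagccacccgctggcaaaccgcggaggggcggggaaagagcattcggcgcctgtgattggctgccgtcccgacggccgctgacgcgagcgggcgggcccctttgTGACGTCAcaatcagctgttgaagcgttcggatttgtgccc
The half-sites of Polk and Sesn1 begin 231 and 173 bases before the start, each in 1 of the gene's windows. In both genes this is the downstream start, and the window of the upstream start holds no half-site. The upstream windows are chr13:96542580-96542829 for Polk and chr10:41810324-41810573 for Sesn1. Which start these cells use was not tested. The response elements of Plk2 and Trp53inp2 begin 62 and 41 bases before the start. Plk3 and Ccng2 hold neither motif upstream of the start. Thus a half-site stood before a downstream start of 1 gene that rose and of 1 that fell. TGACGTCA likewise stood before the start of 1 gene that rose and of 1 that fell. A match describes letters in a window and not binding.

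Both motifs also lay before measured members that did not pass. TGACGTCA began 166 bases before the start of Btg2, 33 before that of Epha2 and 85 before that of Ppm1d. The half-site lay before 7 such members, and its matching bases are shown because these genes bear the motif without a called change.
Mdm2, 186 bases before the start: GAACTTGCCT
Ccng1, 185 bases before the start: GGGCAAGCCT
Ppm1d, 132 bases before the start: GAGCTTGCTC
Aen, 121 bases before the start: GGGCTTGTCC
Ckap2, 203 bases before the start: AGACATGTCC
Ei24, 10 bases before the start: GGGCATGCCC
Gadd45a, 40 bases before the start: GGGCTAGCCC
They had log2 fold changes between -0.22 (Ccng1) and 0.26 (Mdm2). The distance given for Aen belongs to the later of its overlapping windows, and in the other window the same bases lie after the start.

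Genes of arrest and growth control split most widely. Of 10 measured, Plk2 and Plk3 were higher, Ccng2 was lower and 7 did not pass, with a class median log2 fold change of 0.02. Plk2, a serum- and stress-induced polo-like kinase with a role in centriole duplication, had a log2 expression of 11.14 and 11.22 in shPW1 and of 10.54 and 10.53 in Ctl. Both shPW1 arrays lay above both Ctl arrays, and the log2 fold change of 0.64 (standard error 0.06, limma adjusted p = 0.0132) is a 1.56-fold rise. Plk3, a related kinase of the stress response, had 8.19 and 8.33 in shPW1 and 7.72 and 7.68 in Ctl. The arrays again did not overlap, with a log2 fold change of 0.56 (standard error 0.07, limma adjusted p = 0.0236), or 1.47-fold. The pair thus rose together, by amounts that lie within each other's 95% confidence intervals, 0.48 to 0.81 for Plk2 and 0.37 to 0.75 for Plk3.

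Ccng2, which encodes the unconventional cyclin G2 found in cells leaving the cycle, moved the other way. Its log2 expression was 6.82 and 6.95 in shPW1 and 7.46 and 7.42 in Ctl. All Ctl arrays were above all shPW1 arrays, and the log2 fold change was -0.55 (standard error 0.07, limma adjusted p = 0.0224), 1.47-fold lower in shPW1. Its paralog Ccng1, whose cyclin G1 brings a phosphatase to Mdm2, had 11.19 and 11.23 in shPW1 and 11.41 and 11.45 in Ctl. The groups did not overlap for Ccng1 either, yet its log2 fold change of -0.22 (95% confidence interval -0.38 to -0.07, limma adjusted p = 0.0884) did not pass, and the difference between the paralogs was not tested.

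Zmat3, an RNA-binding zinc finger protein and growth suppressor, came closest to the threshold without passing. It had 7.69 and 7.63 in shPW1 and 7.30 and 7.38 in Ctl, with a log2 fold change of 0.32 (limma adjusted p = 0.0516). The classical arrest genes Gadd45a, a sensor of DNA damage, and Btg2, an antiproliferative cofactor of mRNA decay, had log2 fold changes of 0.02 and 0.03, and their arrays overlapped between the groups. Their 95% confidence intervals ran from -0.13 to 0.17 for Gadd45a and from -0.13 to 0.18 for Btg2. Sfn, which encodes 14-3-3 sigma and acts at the G2 checkpoint, stood at 0.03 by its brightest probe set, with arrays that overlapped. The dimmer probe set of Sfn lay below the median on every array and had a log2 fold change of -0.18 with no overlap. The probe sets of Sfn thus disagree in sign, and neither passed. Rprm, another G2 arrest gene, had overlapping arrays and a log2 fold change of -0.18, which was -0.01 without the second Ctl array and -0.36 without the first. Ckap2, a spindle-associated protein, had a log2 fold change of -0.11.

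**Figure D2:**
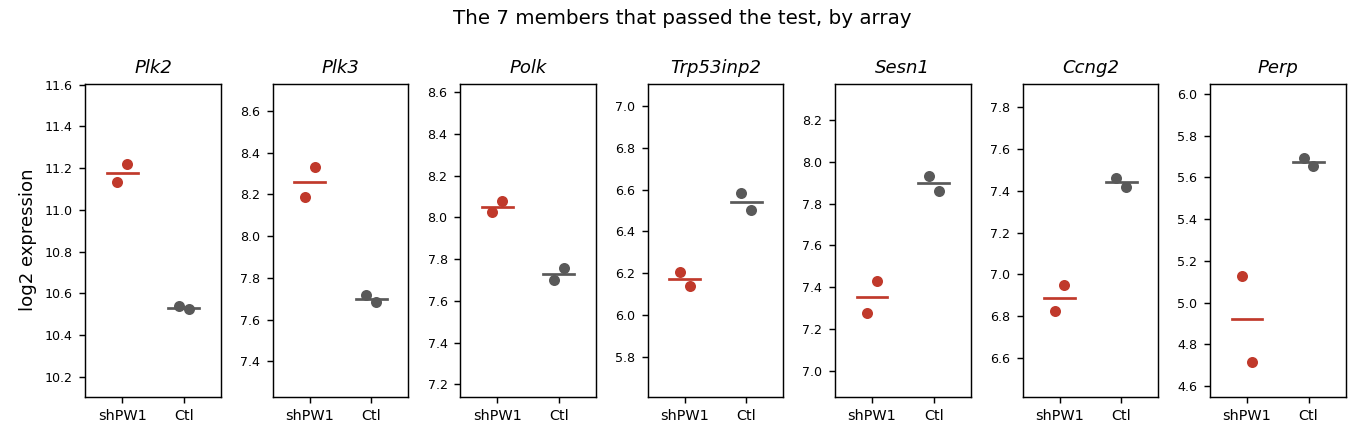
Log2 expression (vertical axis, the same span in each panel) of the 7 p53 target genes that passed the test, with each array as a point (2 shPW1 in red, 2 Ctl in grey) and each group mean as a line. Points of the groups do not overlap in any panel; the shPW1 arrays of Perp, at 5.13 and 4.72, lie furthest apart.

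The feedback genes, which restrain p53 itself, all had positive log2 fold changes, but 0 of 3 passed in limma. At an unadjusted p under 0.05 both Mdm2 and Ppm1d would be counted. Mdm2, the ubiquitin ligase that degrades p53 and a direct p53 target, had a log2 expression of 9.75 and 9.73 in shPW1 and of 9.50 and 9.46 in Ctl. The arrays did not overlap, and the log2 fold change was 0.26 (95% confidence interval 0.11 to 0.41, limma adjusted p = 0.0631). Ppm1d, the phosphatase Wip1 that removes damage-induced phosphates from p53 and its kinases, had 8.58 and 8.65 in shPW1 and 8.44 and 8.46 in Ctl, a log2 fold change of 0.17 (limma adjusted p = 0.163). Mdm4, the Mdm2 relative that masks the activation domain of p53, had overlapping arrays and a log2 fold change of 0.07 (95% confidence interval -0.10 to 0.25).

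Of 5 DNA repair targets measured, Polk was higher and 0 were lower in limma, at an unadjusted p under 0.05 too. Polk encodes DNA polymerase kappa, which copies past damaged bases, and its log2 expression was 8.02 and 8.08 in shPW1 and 7.70 and 7.76 in Ctl. The log2 fold change of 0.32 (standard error 0.06, limma adjusted p = 0.047) is a 1.25-fold rise without overlap of the arrays. The other 4 did not pass. Ddb2, which finds ultraviolet lesions, had the most negative value, with 4.78 and 5.11 in shPW1 and 5.52 and 5.13 in Ctl. These values just failed to overlap, and both shPW1 arrays and the second Ctl array lay below their array medians. The log2 fold change of -0.38 had a 95% confidence interval from -0.85 to 0.08. With 1 array left out it ran from -0.58 (without the second Ctl array) to -0.19 (without the first). Xpc, the partner of Ddb2 in damage recognition, and Ercc5, the nuclease XPG of the same pathway, each had a log2 fold change of -0.11, below Ctl in both shPW1 arrays. Rrm2b, the p53-induced subunit of ribonucleotide reductase, had overlapping arrays and a log2 fold change of -0.07.

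Metabolic and redox targets had 1 lower member among 5 measured, Sesn1. The sestrins hold back the growth kinase complex mTORC1 when nutrients are short or cells are stressed. Sesn1 had a log2 expression of 7.27 and 7.43 in shPW1 and of 7.93 and 7.86 in Ctl. All shPW1 arrays were below all Ctl arrays, with a log2 fold change of -0.55 (standard error 0.08, limma adjusted p = 0.0276), 1.46-fold lower in shPW1. Sesn2, its stress-induced paralog, stood on the other side of Ctl, with 8.13 and 8.19 in shPW1 and 7.91 and 7.67 in Ctl. Its log2 fold change of 0.37 (95% confidence interval 0.12 to 0.63, limma adjusted p = 0.09) did not pass, and the intervals of the sestrins, -0.75 to -0.34 for Sesn1, do not meet, though the difference between the paralogs was not tested. Among enzymes, Tigar, which lowers glycolytic flux, had a log2 fold change of 0.11 with overlapping arrays. Dcxr, a carbonyl reductase of the xylulose pathway, had -0.20 (95% confidence interval -0.36 to -0.05), and Dglucy, the mitochondrial D-glutamate cyclase, had -0.10.

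Death and autophagy targets held 2 lower and 0 higher genes among 10 measured in limma (3 and 2 at an unadjusted p under 0.05), while 7 of the 10 had positive log2 fold changes and the class median was 0.10. Perp, a membrane protein of desmosomes that also acts in p53-dependent apoptosis, fell most of all members. Its log2 expression was 5.13 and 4.72 in shPW1 and 5.69 and 5.66 in Ctl. Both shPW1 arrays were below Ctl, with an SD of 0.29 between them (0.03 in Ctl). The log2 fold change of -0.75 (standard error 0.15, limma adjusted p = 0.0483) corresponds to a level 1.69-fold lower in shPW1. The shPW1 values lie under the median of all rows of their arrays, so the size of the fall is uncertain. Trp53inp2, which promotes autophagosome formation, had 6.20 and 6.14 in shPW1 and 6.58 and 6.50 in Ctl. All shPW1 arrays lay below all Ctl arrays, and the log2 fold change was -0.37 (standard error 0.07, limma adjusted p = 0.0387), 1.29-fold lower in shPW1. Its paralog Trp53inp1, the better known p53 target of the pair, had a log2 fold change of 0.06 (95% confidence interval -0.09 to 0.22).

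The remaining death genes lay on both sides of 0 and did not pass. Apaf1, the core of the apoptosome, had 7.98 and 7.95 in shPW1 and 8.27 and 8.23 in Ctl, a log2 fold change of -0.28 (limma adjusted p = 0.0542). Cdip1, a proapoptotic p53 effector, had 7.63 and 7.73 in shPW1 and 7.39 and 7.40 in Ctl, a log2 fold change of 0.28 (limma adjusted p = 0.0691). Neither gene had overlapping arrays. Among the genes of this class that did not pass, Apaf1 and Cdip1 were nearest the threshold and pointed in opposite directions. The nuclease Aen had a log2 fold change of 0.19, Pidd1, the scaffold of a caspase-2 complex, of 0.16, the endoplasmic reticulum protein Ei24 of 0.16 and Phlda3, an inhibitor of Akt, of 0.13. For these 4 genes both shPW1 arrays were above both Ctl arrays. Eda2r, a receptor of the TNF receptor family, overlapped between the groups with a log2 fold change of 0.06.

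Of 5 transcription factors, receptors and noncoding RNAs on the list, 0 passed in limma, and at an unadjusted p under 0.05 Bcl6, Trp63 and Epha2 would be counted as higher. The repressor Bcl6 had a log2 expression of 7.10 and 7.13 in shPW1 and of 6.98 and 6.83 in Ctl, a log2 fold change of 0.21 (limma adjusted p = 0.163). The receptor tyrosine kinase Epha2 had 9.59 and 9.73 in shPW1 and 9.49 and 9.42 in Ctl, a log2 fold change of 0.20 (limma adjusted p = 0.175). The p53 relatives Trp63 and Trp73 lay just above the array medians, at 5.54 to 5.77 and 5.50 to 5.59 over the 4 arrays, with log2 fold changes of 0.19 and -0.05. The long noncoding RNA Pvt1, a neighbour of Myc, had -0.02 by its brightest probe set and overlapping arrays.

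The rest of the pathway was counted from lists drawn up from general knowledge. Trp53 itself was not analysed here, for want of a probe set with its symbol alone. Of 23 measured regulators of p53, 1 was higher and 0 lower in limma (6 and 2 at an unadjusted p under 0.05). The called share was 4.35%, beside 9.1% of all probe sets, and the median log2 fold change was 0.03. The higher gene was Dyrk2, a kinase that phosphorylates p53 in the nucleus, with 8.12 and 8.29 in shPW1 and 7.56 and 7.62 in Ctl (log2 fold change 0.61, limma adjusted p = 0.024). The damage kinases Atm, Atr, Prkdc, Chek1 and Chek2 had log2 fold changes of 0.06, 0.24, 0.04, 0.12 and -0.19 and did not pass. At an unadjusted p under 0.05 in limma, Atr would be counted as higher and Chek2 as lower. Of the PW1 partners, the ubiquitin ligase Siah1b was higher, with 7.63 and 7.73 in shPW1 and 7.28 and 7.31 in Ctl (log2 fold change 0.39, limma adjusted p = 0.0351). Its paralog Siah1a, whose probes may share signal with it, had -0.09, and the TNF receptor adaptor Traf2 had 0.22. Neither passed, and Bax was not analysed here.

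A further 25 measured p53 targets outside the list were also divided, with 2 higher, 2 lower and a median of -0.04 on the log2 scale. The called share was 16%, beside 9.1% of all probe sets. At an unadjusted p under 0.05, 3 were higher and 8 lower. Fas, a receptor that starts apoptosis, had 6.34 and 6.64 in shPW1 and 5.49 and 5.28 in Ctl (log2 fold change 1.10, limma adjusted p = 0.0202), and the cytokine Lif had 5.96 and 6.06 in shPW1 and 5.36 in both Ctl arrays (0.65, limma adjusted p = 0.0137). Ephx1, a detoxifying epoxide hydrolase, had a log2 fold change of -0.62 (limma adjusted p = 0.0126) and the tetraspanin Cd82, a suppressor of metastasis, of -0.54 (limma adjusted p = 0.0245). Both were therefore lower while Fas and Lif were higher. The Ctl values of Lif and the second Ctl value of Fas lay under the medians of all rows of their arrays. The size of these rises is thus uncertain. Cell cycle genes that p53 lowers through p21 and the DREAM repressor complex had 1 lower and 0 higher gene of 21 measured in limma (6 and 1 at an unadjusted p under 0.05). That gene was the mitotic kinase Aurka (log2 fold change -0.35, limma adjusted p = 0.0377). The called share of this list was 4.76%, and the list median was -0.12.

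Members that other factors share were looked at in lists of targets of those factors, which include these members. FoxO factors act on Ccng2, Sesn1, Bcl6 and Gadd45a. Of 15 measured FoxO targets 3 were higher and 3 lower (4 and 4 at an unadjusted p under 0.05). The called share was 40%, beside 9.1% of all probe sets, and the median log2 fold change was 0.01. The calls of the members Ccng2 and Sesn1 are part of that share. The higher ones were Bcl2l11, which encodes the death activator Bim (1.52, limma adjusted p = 0.00504), the ubiquitin ligase Fbxo32 (0.79, limma adjusted p = 0.0192) and Txnip, an inhibitor of thioredoxin (0.62, limma adjusted p = 0.013). Besides Ccng2 and Sesn1, the cell cycle inhibitor Cdkn1b was lower (-0.39, limma adjusted p = 0.0345). Of 15 Atf4 targets, which include Sesn2, 2 were higher, Cebpb (0.63) and Ddit3 (0.32), and Chac1 was lower (-0.40). The called share of this list was 20%, and 6 were higher and 5 lower at an unadjusted p under 0.05. The FoxO motif GTAAACA, which reads TGTTTAC on the other strand, was found in 3 of 40 windows of members (7.5%), those of Mdm2, Eda2r and Sesn1, and in 3.65% of all windows. In Sesn1 it began 22 bases after the upstream start, in the window that is not printed and that holds no half-site. Calls in both directions were thus present in the FoxO list and in the Atf4 list.

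**Figure D3:**
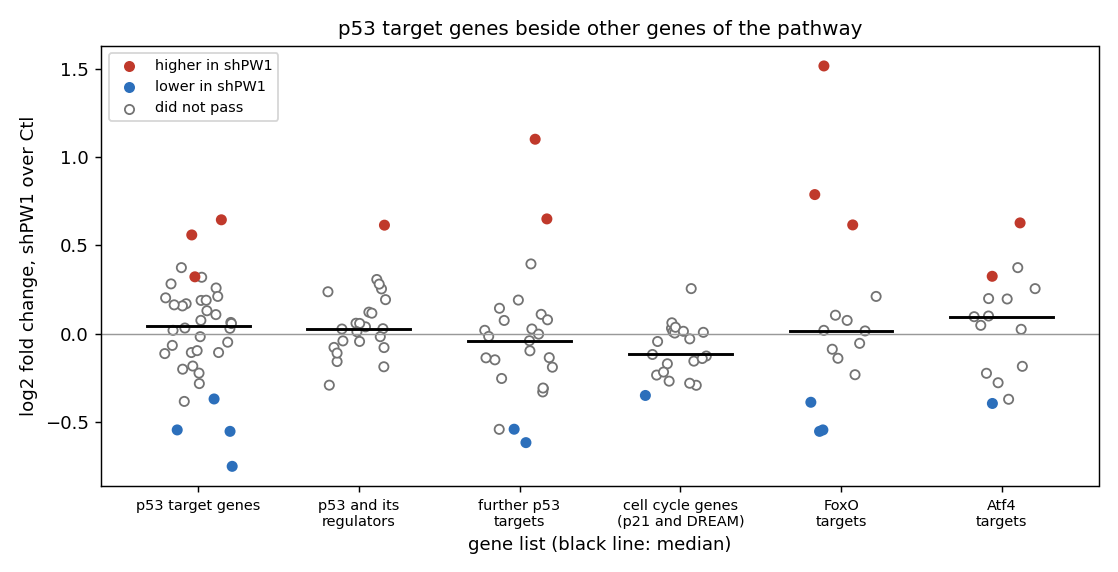
The 38 p53 target genes and 5 further gene lists (horizontal axis) are plotted by log2 fold change, shPW1 over Ctl (vertical axis). Each point is a gene in a list, red where higher, blue where lower, open where the test was not passed. Members that are FoxO or Atf4 targets are drawn in those lists too. Black lines are medians. Medians lie between -0.12 for cell cycle genes and 0.10 for Atf4 targets, and Bcl2l11 at 1.52 is the highest point.

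The number of members that passed depended on the processing. With probe sets of a mean log2 value under 5 left out, all 38 members stayed, and 7 were higher and 7 lower. In that setting 25.1% of the 14465 probe sets passed (13.6% higher, 11.5% lower), and 65.5% showed no overlap of the groups. The original 7 were kept, and Mdm2, Zmat3, Sesn2, Cdip1, Ccng1, Apaf1 and Dcxr were added. Under a trended robust prior 11 were higher and 6 lower, where 21.6% of all probe sets passed (12.6% higher, 9.08% lower). After subtraction of array medians 7 were higher and 3 lower, beside 11% of all probe sets (7.47% higher, 3.48% lower), with Mdm2, Zmat3, Sesn2 and Cdip1 added and Trp53inp2 lost. A repeated quantile normalization kept 6 of the 7 calls, lost Polk and added Apaf1, beside 9.29% of all probe sets (4.81% higher, 4.48% lower). The methods' analysis of variance counted 5 higher and 4 lower without adjustment, beside 11.7% of all probe sets. It kept 6 of the 7 calls, lost Perp and added Apaf1, Cdip1 and Zmat3.

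Stricter settings left few or no members. With all 35556 rows tested 0 of 38 members passed in limma, and 0.242% of rows passed (0.101% higher, 0.141% lower). At an unadjusted p under 0.05 that setting counted 16 members, beside 19.5% of rows. With the replicate number as a block Plk2 alone passed, beside 2.36% of all probe sets (1.17% higher, 1.18% lower). With any 1 array left out, 1 group held a lone array. Calls at an adjusted p under 0.05 then did not tell members from other probe sets. With all arrays, limma counted 12 higher and 7 lower members at an unadjusted p under 0.05, beside 27.7% of all probe sets (14.1% higher, 13.6% lower). The direction of all 7 called members was the same under each of the 14 alternatives tried. Their arrays did not overlap, so only repeated quantile normalization and median subtraction could have changed it. Perp was the most dependent on 1 array, with a log2 fold change of -0.55 without the second shPW1 array and of -0.96 without the first.

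**Figure D4:**
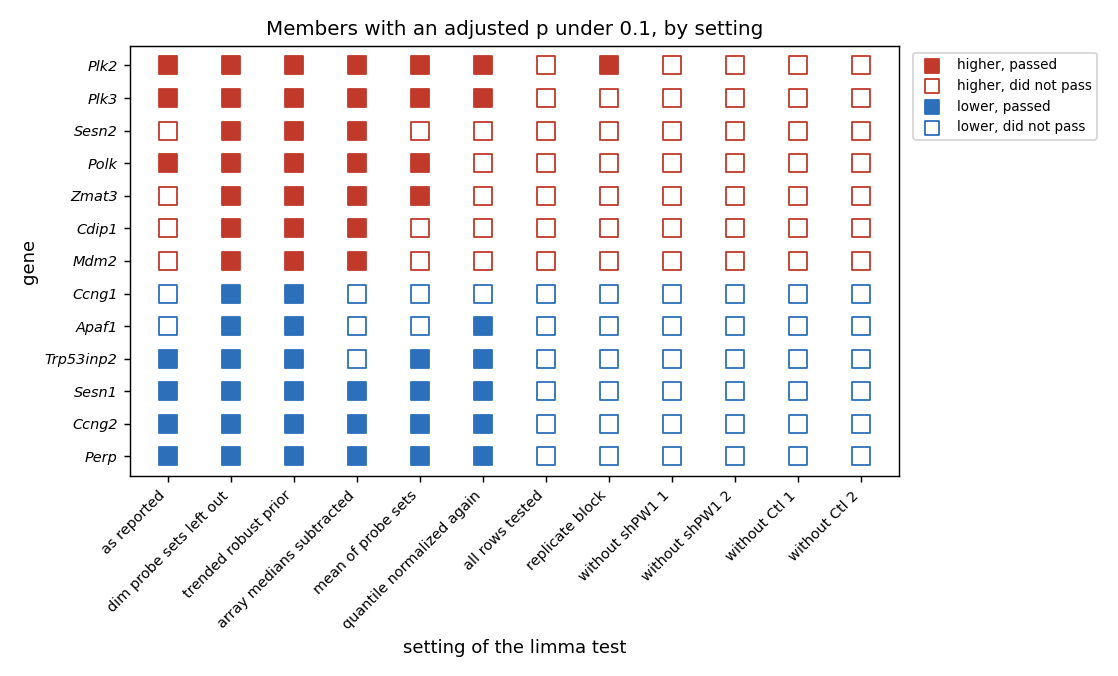
Result of limma for the 13 p53 target genes with an adjusted p under 0.1 (rows) under 12 settings (columns). Filled squares passed at an adjusted p under 0.05, open squares did not, red is higher and blue lower in shPW1. For these genes only repeated quantile normalization and median subtraction could have changed a colour. Colours do not change along any row, and Plk2 is the 1 gene drawn that passed with the replicate number as a block. Columns with all rows tested or an array left out hold no filled square. With an array left out, calls did not tell members from other probe sets.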

How the data were processed

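RNA from growing shPW1 and Ctl AdmMABs, 2 extractions a group, was hybridized to Affymetrix Mouse Gene 1.0 ST arrays. The values are log2 expression as deposited by the authors, who used Partek Genomics Suite (6.4 according to the notes of the submitters) and RMA, so background correction, normalization and summarization preceded this work, and differences of dim genes may be compressed. No detection call or depth was available, and the number of arrays limits the precision. The array's annotation gave 1 symbol to 21789 probe sets, several to 1621 and none to 12146, and 21698 of the first matched the RefSeq gene table. The shPW1 and Ctl arrays were set against each other in limma 3.58.1 (lmFit, eBayes, R 4.3.3, 2 residual and 2.72 prior degrees of freedom), two-sided, with Benjamini-Hochberg adjustment over all 21789. The fit was tested on simulated data. Replicate arrays differed with an SD of 0.166 (shPW1) and 0.15 (Ctl), and pairs of a shPW1 and a Ctl array with 0.268 to 0.286.

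All members were named. Every array is given for the called members and those a class turned on, and pathway lists give up to 4 called members with the largest change and every PW1 partner. Rgs5, Alpl, Atm, Atr, Prkdc, Chek1, Chek2 and Cdkn1b fell outside this rule and were chosen after their values were seen. Members, lists and tests were chosen with earlier results of these data known. The vector of the control hairpin is not settled by the sources used here, and any difference of vector cannot be told apart from the silencing. Promoter sequences are those of RefSeq (GRCm38.p6). The alternatives were leaving out probe sets with a mean under 5, testing all rows, repeated quantile normalization, median subtraction, another prior, the methods' analysis of variance (p under 0.05, fold change over 1.2), the replicate block, the mean of a gene's probe sets, an unadjusted threshold, and leaving out each array.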

Additional observations from a re-analysis of the deposited data

How the results depend on the processing

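Leaving out 1 array at a time gave 0 calls in limma, among members and among all probe sets, higher or lower, with the lone array of a group assumed to vary like the other group. At an unadjusted p under 0.05 these fits counted 13 to 15 members, beside 17.4% to 24.7% of all probe sets. Under the same fits the median of the members ran from 0.0182 to 0.0757. The counts of higher and lower members and of all higher and lower probe sets were 7, 7, 1965 and 1667 with dim probe sets left out, 0, 0, 36 and 50 with all rows tested, and 11, 6, 2735 and 1978 with a trended robust prior. They were 12, 7, 3079 and 2953 at an unadjusted p under 0.05. After median subtraction they were 7, 3, 1627 and 759, the members' median was 0.10, and 68.2% of all calls were higher, against 54.2%. The methods' analysis of variance gave 5, 4, 1383 and 1165, and 0, 0, 1 and 1 after adjustment. With the replicate number as a block they were 1, 0, 256 and 258, Plk2 alone among members. Same-numbered arrays deviated slightly against each other (correlation -0.105), and crossed numbers, tried after seeing the data, gave 1, 0, 213 and 224.

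Of the 38 members, 31 kept their direction under all 14 alternatives, many of which cannot change it for a gene with non-overlapping arrays. The 7 others were near 0 and passed nowhere. Gadd45a was -0.0113 and Trp73 0.0037 after repeated quantile normalization, Trp73 was 0.0091 and Pvt1 0.0403 after median subtraction, and Sfn was -0.0741 with the mean of its probe sets. Leaving out 1 array at a time gave -0.0014 to 0.0596 for Btg2, -0.0219 to 0.1352 for Eda2r, -0.0076 to 0.0438 for Gadd45a, -0.0583 to 0.0225 for Pvt1, -0.1451 to 0.0108 for Rrm2b and -0.0687 to 0.1311 for Sfn. The cause of these changes was not tested, beyond the number of probe sets or arrays that a setting removes or adds.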
